A study of Homo sapiens with 10 samples.

Results

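Among the sites bound by the largest subunit of RNA polymerase I (POLR1A) in HCT116 cells, 342 lay on chromatin marked by H3K9me3 and carried no H3K4me3. They were chosen by the peak calls themselves: a peak of the POLR1A list on chromosomes 1 to 22 and X belonged to the group if it shared at least 1 base with an H3K9me3 peak and none with an H3K4me3 peak. The group made up 8.97% of the 3812 POLR1A peaks on these chromosomes and 57.5% of the 595 that touched H3K9me3. Of its 342 peaks, 124 also overlapped a peak of POLR2A, the catalytic subunit of RNA polymerase II, and 218 did not. These 2 classes are described apart.

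The study profiled HCT116, an established human colorectal carcinoma line labelled WT, by CUT&Tag, in which an antibody directs a transposase to cut and tag DNA beside its target. Of the 10 samples, 3 were made with an antibody to POLR1A, 3 with one to POLR2A, 3 with one to H3K9me3 and 1 with one to H3K4me3. All are labelled with the same line and no treatment is named for them, so the antibody is what sets them apart. Each target had 1 list of peaks, the series compares where the polymerases lie relative to the marks, and no value below has a replicate error. H3K4me3 or POLR2A peaks lay at gene ends for 6 of 7 epithelial marker genes (EPCAM, CDH1, KRT8, KRT18, KRT19 and CDX2, but not VIL1), for 1 of 4 leukocyte markers (CD14), 1 of 2 liver markers (APOA1) and 1 of 3 fibroblast markers (COL1A1).

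RNA polymerase I transcribes the repeated genes for the large ribosomal RNA precursor in the nucleolus, and RNA polymerase II transcribes protein-coding genes. H3K9me3 is the mark of constitutive heterochromatin. It covers satellite repeats around centromeres, sequence beside telomeres, silenced transposable elements, clusters of zinc finger genes and the copies of ribosomal DNA that are kept silent, and HP1 proteins bind it. H3K4me3 marks active promoters, so peaks with the first mark and without the second lie outside ordinary promoters by this definition.

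The annotated promoters that a peak of the group touched are shown first, as the only sequences under these peaks that could be read. A RefSeq table for GRCh38.p14 gives 34961 stretches of 300 bases, each from 250 bases before to 50 after the start of a gene, on these chromosomes; it is not complete. Peaks of the group overlapped 2 of them, a number kept low by the rule itself, which removes peaks with the mark of active promoters. They are printed 5′ to 3′ on the strand of the gene, with the bases under the POLR1A peak in capitals.
SLC66A3: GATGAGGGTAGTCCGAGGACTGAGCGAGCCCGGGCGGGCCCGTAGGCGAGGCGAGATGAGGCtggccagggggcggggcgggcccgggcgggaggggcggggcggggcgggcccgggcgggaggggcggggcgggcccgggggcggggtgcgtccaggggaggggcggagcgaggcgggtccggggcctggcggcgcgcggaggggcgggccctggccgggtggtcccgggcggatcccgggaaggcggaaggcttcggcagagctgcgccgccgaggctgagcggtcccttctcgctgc
LOC100132249: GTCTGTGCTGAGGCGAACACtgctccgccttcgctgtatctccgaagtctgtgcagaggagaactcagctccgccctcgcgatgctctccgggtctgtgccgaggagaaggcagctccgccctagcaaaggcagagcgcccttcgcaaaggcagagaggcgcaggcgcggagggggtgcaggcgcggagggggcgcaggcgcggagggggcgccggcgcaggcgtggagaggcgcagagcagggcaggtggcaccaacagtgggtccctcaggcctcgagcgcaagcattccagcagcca
The stretch of SLC66A3 is chr2:11155217-11155516 on the + strand, with the start of the gene at 11155467. The POLR1A peak (11155074 to 11155278, fold enrichment 10.8) covered its first 62 bases, upstream of the start. It met its H3K9me3 peak by 1 base only, carried POLR2A at 16.2 and lay 291 bp from an H3K4me3 peak. This sequence was 82.3% G and C, at or above 99.1% of the promoters, whose median was 58.7%. The stretch of LOC100132249, an uncharacterised gene, is chr9:62838297-62838596 on the - strand. There the POLR1A peak (62838577 to 62838776, 5.76) covered the 20 bases farthest upstream, with H3K9me3 at 5.04 and POLR2A at 4.64. The stretch of LOC100132249 was 69% G and C, at or above 78.0% of the promoters.

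Fold enrichment is the authors' linear ratio of signal to background at a peak, and it ranks peaks within 1 list. Peaks of the group had a median POLR1A fold enrichment of 6.04 (quartiles 4.72 and 8.17) and a median width of 387 bp, against 5.38 and 285 bp in the 3470 other POLR1A peaks. Peaks with both marks were higher and wider still, at 7.85 and 430 bp (n = 253), and peaks with neither mark lower, at 4.25 and 250 bp (n = 961). The values of the group ran from 3.24 to 42.4, the highest value of the whole list. With POLR2A the median was 7.61 (5.50 to 11.5) and without it 5.44 (4.46 to 6.73). A fold of at least 10 was reached by 39 of the 124 peaks with POLR2A and by 15 of the 218 without. Along the POLR1A list cut into 10 groups of equal size, the group of interest made up 18.3% of the strongest 382 peaks and 4.99% of the weakest 381.

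A POLR2A peak was present at 36.3% of the group (95% exact interval 31.2 to 41.6), where 71.7% of all POLR1A peaks overlapped POLR2A. The exact (Clopper-Pearson) intervals cover counting error only. The nearest comparisons were POLR1A peaks with both marks, of which 247 of 253 had POLR2A (97.6%), and POLR1A peaks with neither mark, of which 265 of 961 had it (27.6%). Seen from the other lists, 317 of 16414 H3K9me3 peaks (1.93%) and 127 of 19997 POLR2A peaks (0.635%) carried a peak of the group. The count with POLR2A depended on the threshold of the lists: with a −log10 q of at least 5 in every list it was 54 of 201.

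Few peaks of the group lay at gene ends, as for H3K9me3 peaks in general. Of its 342 summits, 3 (0.877%, 95% exact interval 0.181 to 2.54) lay within 1 kb of an end of a protein-coding gene, where 2.41% of all H3K9me3 summits and 1.32% of those without H3K4me3 did. The share was 6.45% among POLR1A peaks with neither mark and 45.5% in the whole POLR1A list, most of which carries H3K4me3 and so differs by the rule. A further 116 lay in gene bodies (33.9%) and 223 were intergenic (65.2%, 59.9 to 70.2), against 22.2% intergenic summits in the POLR1A list as a whole, 38.1% among POLR1A peaks with neither mark and 53.2% in the H3K9me3 list. Intergenic summits were 74 of 124 with POLR2A (59.7%) and 149 of 218 without (68.3%). The nearest H3K4me3 peak was more than 100 kb away in 186 cases (54.4%), between the shares among other sets without that mark: 32.8% of POLR1A peaks with neither mark and 64.9% of the 16008 H3K9me3 peaks without H3K4me3. It was within 1 kb in 10 cases.

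Many peaks of the group lay at the margins of chromosomes. A summit counted as near a chromosome end if it lay beyond the outermost annotated gene or no more than 1 Mb inside it, and as near a gene-free interval inside or within 1 Mb of a stretch of at least 2 Mb without any gene, which is where centromeres and large satellite arrays lie. On chromosome 15, 2 peaks counted this way lie more than 1 Mb beyond the first gene, at 17080539 to 17083247. Peaks on chromosomes 14 and 21 counted this way start at 16103492 and 5329623. At such sites the label follows the first annotated gene and not the start of the chromosome sequence. Of the 342 summits 174 met either condition (50.9%, 95% exact interval 45.4 to 56.3), where 11.6% of all POLR1A summits and 8.69% of all H3K9me3 summits did. Among POLR1A peaks with both marks the share was 15.8%, and among those with neither 11.4%. With POLR2A the shares at both kinds of margin were similar, and without it gene-free intervals held more. Neighbouring peaks count as separate sites in these intervals, and several clusters described below lie near gene-free intervals. With POLR2A, 33 summits were near chromosome ends (26.6%, 19.1 to 35.3) and 28 near gene-free intervals (22.6%, 15.6 to 31.0). Without POLR2A, 29 were near chromosome ends (13.3%, 9.09 to 18.5) and 84 near gene-free intervals (38.5%, 32.0 to 45.3).

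**Figure D1:**
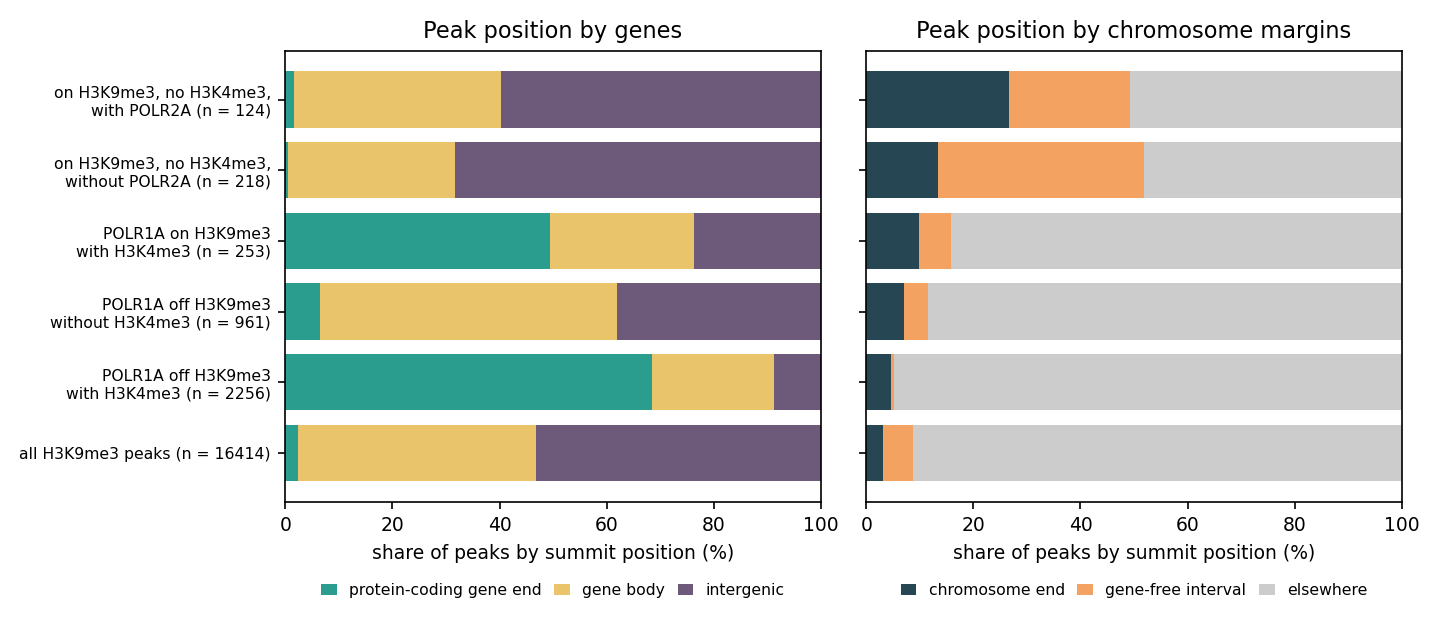
Share of peak summits (x axis, %) by gene position (left: protein-coding gene end, gene body, intergenic) and by chromosome margin (right: chromosome end, gene-free interval, elsewhere), for both classes of the group, the 3 other classes of POLR1A peaks and all H3K9me3 peaks. Intergenic summits were 59.7% with POLR2A and 68.3% without, and margins held 49.2% and 51.8%.

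Chromosomes contributed unevenly. Chromosome 4 held 38 peaks of the group, chromosome 17 held 36, chromosome 10 held 26 and chromosomes 20 and 21 held 25 each, together 150 of 342. On chromosome 21 they were 25 of only 58 POLR1A peaks (43.1%), on chromosome 4 they were 22.2% and on chromosome 20 they were 21.2%. On chromosomes 10 and 17 they were 13.5% and 13.4%, against 8.97% of the whole POLR1A list. At the other end stood chromosome 19 with 8 of 363 (2.20%) and chromosome 3 with 6 of 193 (3.11%). Chromosome 15 had 3 of 85 (3.53%), chromosome 12 had 7 of 198 (3.54%) and chromosome X had 2 of 53 (3.77%). These are shares of the POLR1A peaks. Of the H3K9me3 peaks on chromosome 19, 1.61% carried a peak of the group, near the 1.93% of the whole list. That share was 0.568% on chromosome 3, 0.519% on 15, 0.997% on 12 and 0.541% on X. Among the chromosomes with the most peaks of the group it was 2.42% on 4, 3.18% on 10, 5.69% on 20, 6.25% on 21 and 6.63% on 17. Chromosome 4 thus stood out less by this measure than by its share of POLR1A peaks. On chromosomes 4 and 17 most lay near gene-free intervals, 29 of 38 and 25 of 36.

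**Figure D2:**
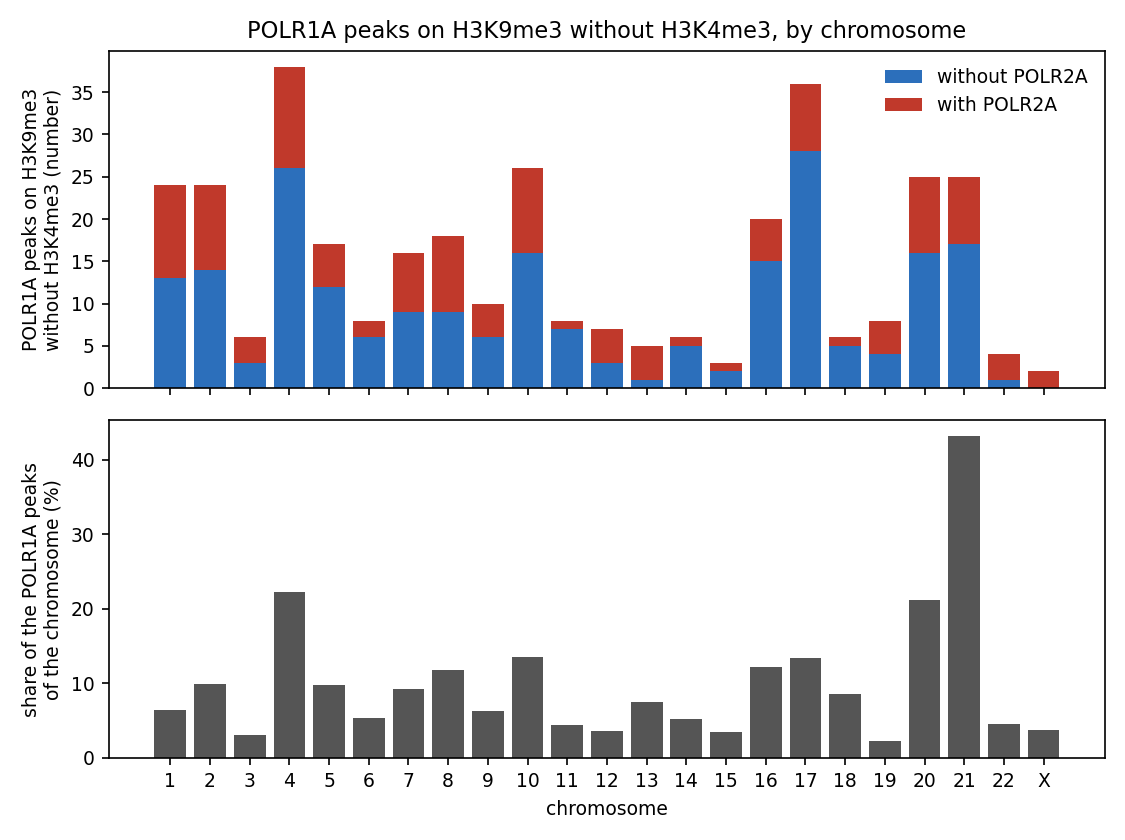
Number of POLR1A peaks on H3K9me3 without H3K4me3 on each chromosome (upper bars, stacked by presence of POLR2A) and their share of the POLR1A peaks of that chromosome (lower bars, %). Chromosomes 4 and 17 held the most peaks, 38 and 36, and chromosome 21 the highest share, 43.1%.

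The strongest peaks with POLR2A sat at chromosome ends. Of the 12 highest, 10 were near a chromosome end, 1 near a gene-free interval and 1 elsewhere. The highest lay on chromosome 10 (133787106 to 133787506), 8602 bp from the ribosomal protein pseudogene RPL23AP60, with POLR1A at 42.4, POLR2A at 50.9 and H3K9me3 at 25.5. Next came a peak on chromosome 7 (16384 to 16998), 515 bp from LOC102723872, at 37.9 with POLR2A at 35.5 and H3K9me3 at 10.1. On chromosome 1 a peak at 180109 to 181109 reached 36.0, with POLR2A at 44.4 and H3K9me3 at 10.6, and one at 10003 to 10594 reached 29.7, 1744 bp from the pseudogene DDX11L1. These peaks had high values in both polymerase lists while their H3K9me3 values differed by more than a factor of 2.

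Chromosome 4 (10001 to 10265) had a POLR1A value of 31.8 and chromosome 9 (10001 to 10812) one of 26.2, the latter 1837 bp from DDX11L5. Further chromosome-end peaks were at 25.9 on chromosome 2 (242183304 to 242183595, beside RPL23AP88), 25.1 on chromosome 12 (133264799 to 133265125) and 24.8 on chromosome 13 (114353760 to 114354370), with the last of the 12 on chromosome 16 (90121654 to 90122443, POLR2A 27.7) in the lncRNA gene FAM157C. The exception near a gene-free interval was on chromosome 21 (10692383 to 10693118), with POLR1A at 29.8, POLR2A at 16.2 and H3K9me3 at 25.3. The exception elsewhere was in the receptor gene GPR35 on chromosome 2 (240613499 to 240614018), with POLR1A at 28.5, POLR2A at 19.7 and H3K9me3 at 4.17. A second peak in GPR35 (240625753 to 240626351, 8.76, H3K9me3 3.98) had no POLR2A and lay 573 bp from an annotated start of the gene.

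At the very start of the chromosome sequences, where telomere repeats end and subtelomeric sequence begins, POLR1A had both peaks of the group and peaks that the rule left out. Both kinds lay at the start of the same chromosome only on chromosomes 2 and 7. Of 13 POLR1A peaks that began in the first 20 kb of a chromosome, on 11 chromosomes, 6 belonged to the group, with fold enrichments from 6.02 to 37.9. Another 4, on chromosomes 3, 5, 12 and 18, overlapped H3K4me3 as well as H3K9me3 and had values from 22.6 to 35.9, and 3 had no H3K9me3 peak. POLR2A had 16 peaks there, H3K9me3 11 and H3K4me3 5. All 4 lists thus had peaks in these few kilobases. The sources used here do not say how the authors treated reads that map to many places, and the part of such reads in these values was not tested.

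With POLR2A the chromosome-end peaks had a median fold enrichment of 13.1 (n = 33), against 7.71 near gene-free intervals (n = 28) and 7.29 elsewhere (n = 63). Without POLR2A the medians were 5.37, 5.47 and 5.49. Of the 39 peaks with POLR2A and a POLR1A value of at least 10, 17 were near chromosome ends. A value of at least 10 in both polymerase lists was reached at 23 sites, of which 16 were near chromosome ends.

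**Figure D3:**
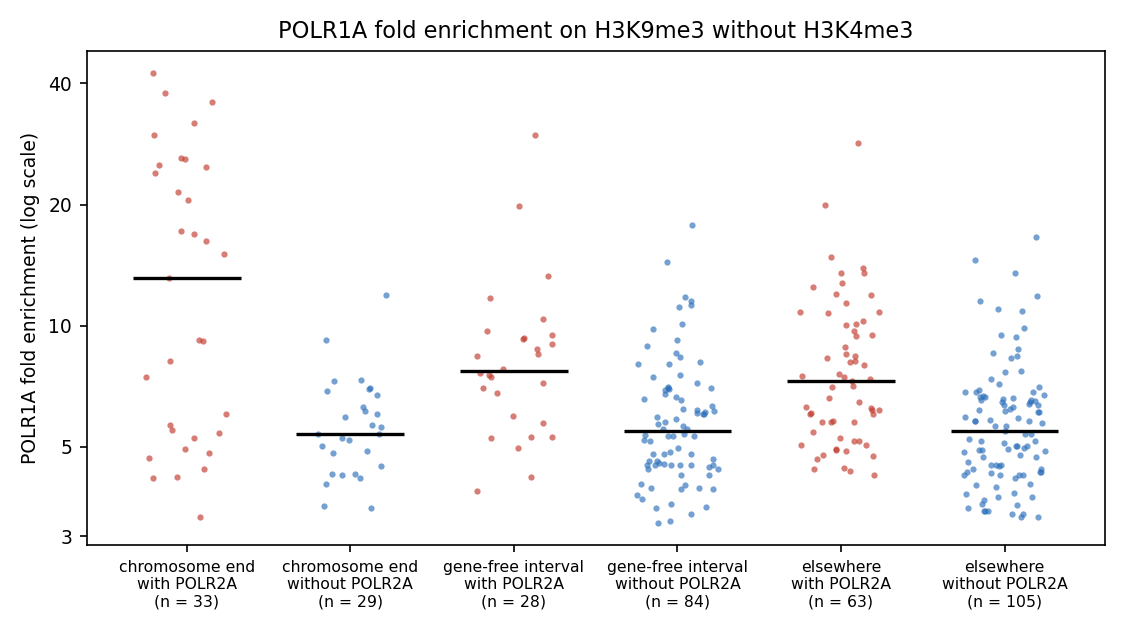
POLR1A fold enrichment (y axis, log scale) of each peak of the group, 1 point per peak, by chromosome margin and class; black bars are medians and the sideways spread within a class is only for legibility. With POLR2A the median was 13.1 near chromosome ends and 7.29 elsewhere, and without POLR2A 5.37 and 5.49.

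Peaks of the group came in clusters. Another peak of the group lay within 10 kb for 133 of 342 (38.9%, 95% exact interval 33.7 to 44.3), 37 of 124 with POLR2A (29.8%) and 96 of 218 without (44.0%). Counting any POLR1A peak as neighbour, 43.9% of the group and 8.27% of the other POLR1A peaks had one. There were 16 clusters of at least 3, holding 93 peaks. The largest was on chromosome 4, where 19 peaks fell within 61890 bp (49091958 to 49153847), 8031 bp at the closest from a gene, LOC101927209. Only 4 of the 19 had POLR2A, and their POLR1A values ran from 3.24 to 9.70. A second cluster on chromosome 4 (49632590 to 49652417) held 7 peaks, 4 of them with POLR2A and a highest value of 13.3.

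Chromosome 10 (41879248 to 41910063) and chromosome 17 (21968744 to 21991814) had clusters of 9 each, with median POLR1A values of 5.97 and 4.81, and neither had a gene within 50 kb. Those clusters lay near gene-free intervals. Other clusters of the group fell outside the margins as defined here. On chromosome 20 (31051730 to 31075844) 7 peaks lay 132519 bp or more from the nearest gene, CDC27P5, with values from 3.84 to 8.55. On chromosome 2 (89826366 to 89840621) 7 lay within the span of IGK, the immunoglobulin kappa locus, which RefSeq draws across the gap between its gene segments. Their POLR1A values began at 4.93, with a median of 7.69, and 4 of them had POLR2A. Where the group was densest, in 8 blocks of 1 Mb, it held from 8 of 14 to all of the POLR1A peaks. Its peaks were 28 of 33 in the block of chromosome 4 that starts at 49 Mb, 11 of 13 at 31 Mb on chromosome 20 and 11 of 11 at 143 Mb on chromosome 1. Chromosome 17 had 10 of 10 at 26 Mb and 10 of 15 at 21 Mb, chromosome 10 had 10 of 14 at 41 Mb, chromosome 16 had 8 of 8 at 34 Mb and chromosome 5 had 8 of 14 at 49 Mb.

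Ribosomal DNA, the known template of RNA polymerase I, was represented by 1 cluster. Next to RNA45SN2 on chromosome 21 (8205988 to 8219302), a copy of the gene for the ribosomal RNA precursor, 4 peaks of the group lay within 15038 bp. The first (8219750 to 8220204, POLR1A 11.0, H3K9me3 12.9) began 448 bp past the annotated end of the gene. The second (8228496 to 8228917) had the highest POLR1A value of the 4, 13.5, and was the only one with POLR2A, at 7.80. The third (8230243 to 8230825) had 6.62 and the fourth (8234103 to 8234787) 11.9, with H3K9me3 at 5.21 and 7.31. All 4 thus lay beside the gene and not in it.

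No POLR1A peak overlapped RNA45SN1, RNA45SN2 or RNA45SN3 on chromosome 21, the copies examined, and none of the other 3 lists had a peak in them. The POLR1A peaks nearest to RNA45SN3 and RNA45SN1 were 9048 bp and 10634 bp away, weak at 4.40 and 4.02, and without H3K9me3. No summit of any POLR1A peak was in any of the 543 annotated ribosomal RNA genes and pseudogenes on chromosomes 1 to 22 and X. With the treatment of repeated sequence not given, these zeros do not measure polymerase I on the ribosomal RNA genes.

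**Figure D4:**
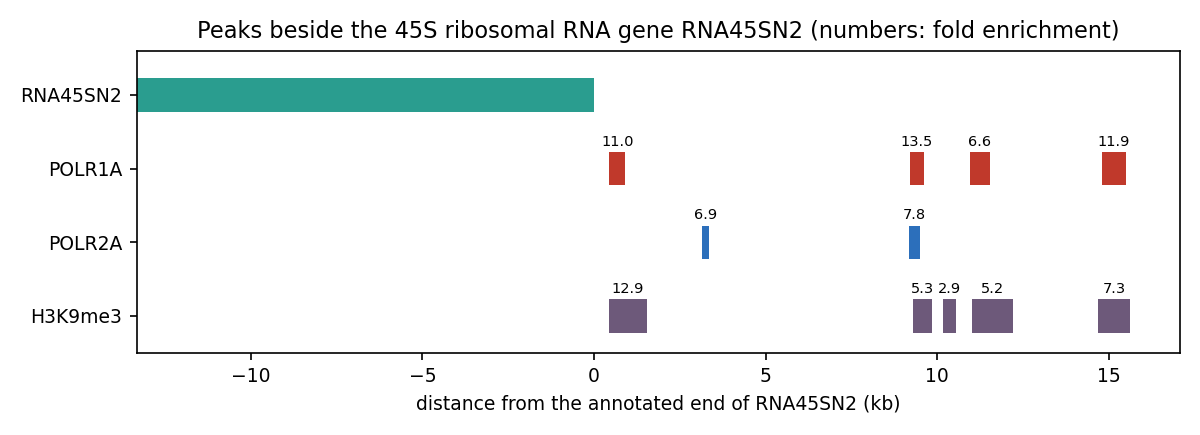
Peaks beside the ribosomal RNA gene RNA45SN2, drawn to scale against the distance from its annotated end (x axis, kb), with the fold enrichment of each peak above it. The 4 POLR1A peaks, each on an H3K9me3 peak, had values of 11.0, 13.5, 6.62 and 11.9, and no peak lay on the gene.

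Without POLR2A, the strongest peaks were of a different kind. Of the 12 highest, 6 were near gene-free intervals, 5 elsewhere and 1 near a chromosome end. Chromosome 17 had the highest (26603734 to 26604331, POLR1A 17.8, H3K9me3 25.1), 377780 bp from the nearest gene. It also had the fourth (25920036 to 25920385, 14.4), with the highest H3K9me3 value of the group, 26.5, and the eighth (26619447 to 26620138, 11.8, H3K9me3 19.7). Chromosome 5 gave a pair beside its gene-free interval (49630810 to 49631320 at 11.5 and 49615413 to 49615875 at 11.1), and chromosome 10 a peak of the cluster described above (41889170 to 41889681, 11.2). On chromosome 16 a peak at 34085190 to 34085436 had 11.5 with H3K9me3 at 24.3. The chromosome-end exception lay on chromosome 4 (555072 to 555476, 11.9), 15078 bp from PIGG, a gene of the GPI anchor pathway.

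Duplicated gene families gave 4 peaks, none with POLR2A, all uncertain because their sequence has near-identical copies. DUX4 is a transcription factor gene inside the D4Z4 repeat, an array near the ends of chromosomes 4 and 10 that carries H3K9me3 where it is silent. DUX4 itself on chromosome 4 (190179281 to 190179998) had a POLR1A value of 9.19 with H3K9me3 at 7.92, DUX4L13 on chromosome 10 had 5.37 with H3K9me3 at 21.5, and DUX4L26 on chromosome 3 (75668942 to 75669483) had 14.6 with H3K9me3 at 21.1. RGPD2, a relative of the nuclear pore gene RANBP2 on chromosome 2 (87824890 to 87825385), had 13.5 with H3K9me3 at 12.3. Genes of these families held 1.17% of the group, 0.341% of the POLR1A list and 0.274% of the H3K9me3 list.

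Nuclear pseudogenes of mitochondrial genes, copies of mitochondrial DNA inserted into chromosomes, were noticed after the values had been seen. They held the summits of 10 POLR1A peaks, and 6 of these belonged to the group (1.75% of it, against 0.262% of the POLR1A list and 0.0975% of the H3K9me3 list). MTCO1P40 on chromosome 17 (peak 53105733 to 53106449) had 16.6 without POLR2A, the second highest value of its class. MTND1P14 on chromosome 17 had 13.5 with POLR2A at 11.1, and MTCO1P2, inside the kinase anchor gene AKAP6 on chromosome 14, had 10.8 with POLR2A at 7.08. MTND4LP1 on chromosome X had 8.50, MTCYBP35, inside KIAA0825 on chromosome 5, had 6.34, and MTND5P27 on chromosome 2 had 3.34. On the mitochondrial genome itself the POLR1A list had 9 peaks with values from 1.25 to 3.22, and the other 3 lists had 5 to 15 peaks there with values up to 3.68. Whether reads from the mitochondrial genome contribute to these sites was not tested.

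The other gene families examined held few peaks of the group or none. Zinc finger genes, a classical home of H3K9me3, had 2 summits of the group (0.585% of it), although they held 2.17% of H3K9me3 summits and 1.21% of POLR1A summits. These were in ZNF16 (POLR1A 8.19) and ZNF517 (7.48) on chromosome 8, both with POLR2A. The peak in ZNF517 shared only 9 bp with H3K9me3 and lay 71 bp from an H3K4me3 peak. Genes whose names begin with KRT or COL had 3: COL17A1, a collagen of hemidesmosomes (10.1, with POLR2A), COL5A1 (7.49, with POLR2A) and the keratin-associated pseudogene KRTAP21-4P (4.32). KRT and COL genes held 0.877% of the group, 0.210% of POLR1A summits and 0.280% of H3K9me3 summits. Olfactory receptors, transfer RNA genes, small nuclear RNA genes and pseudogenes, clustered protocadherins, replication-dependent histones, endogenous retrovirus genes and ribosomal RNA genes had 0. The whole POLR1A list had only 3 summits in olfactory receptors, 2 in transfer RNA genes and 4 in histones, and 0 in the rest. These zeros therefore say little about the group.

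Inside protein-coding genes lay 74 of the 342 summits (21.6%), in 64 genes, against 46.8% of POLR1A summits with neither mark and 29.1% of H3K9me3 summits without H3K4me3. Of the 74, 55 were away from the margins and 20 of these had POLR2A. After GPR35, the highest in genes with POLR2A were in DIP2C (13.1) and CPN1, a carboxypeptidase subunit gene (12.7), both on chromosome 10. STARD8 on chromosome X had 9.47 with H3K9me3 at 14.9. Without POLR2A, most values in genes were lower: after RGPD2, DUX4 and the second peak of GPR35 came SMOC2 (7.18), an extracellular matrix gene with H3K9me3 at 17.4, and HSF2BP (7.03), which overlaps LINC00313 there. The median over gene bodies was 6.53 with POLR2A (n = 48) and 5.00 without (n = 68).

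The 3 summits within 1 kb of a protein-coding gene end were those beside SLC66A3, whose neighbour CIMIP5 shares that window, ELL and ZDHHC11. Gene ends here are the outer limits of a gene, so starts inside it do not count. Within 1 kb of an annotated start of any gene lay 5 peaks of the group, 2 with POLR2A and 3 without. They were those at SLC66A3, LOC100132249, FAM201B, LOC124904606 and GPR35, so ELL and ZDHHC11 were not among them. ELL, an elongation factor gene of RNA polymerase II on chromosome 19, lay 427 bp from a peak at 18442086 to 18442343 with POLR1A at 6.17, H3K9me3 at 8.47 and POLR2A at 4.90. ZDHHC11, a palmitoyltransferase gene on chromosome 5, held a peak at 795968 to 796492 with 6.16, H3K9me3 at 4.57 and no POLR2A. With every list cut to the 3812 peaks of highest fold enrichment, which removes most H3K4me3 peaks, the share at gene ends was 8.75%.

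H3K9me3 under the group was stronger than elsewhere in its list. The 317 H3K9me3 peaks that carried a peak of the group had a median fold enrichment of 7.13 and a median width of 708 bp, and the 15850 without any POLR1A peak 4.57 and 494 bp; a wider peak also has more bases to overlap. At POLR1A peaks with both marks the median H3K9me3 value was 5.18, against 7.15 in the group. For 257 of the 342 POLR1A peaks (75.1%) the whole peak lay inside H3K9me3, 77 of 124 with POLR2A (62.1%) and 180 of 218 without (82.6%). The median distance between the POLR1A summit and the H3K9me3 summit was 64.5 bp, and 203 summits (59.4%) were within 100 bp. On the 124 peaks with POLR2A it was 49.5 bp to H3K9me3 and 38.5 bp to POLR2A, and 82 were within 100 bp in either case. The same start, to within 10 bp, was shared with H3K9me3 by 40 peaks and with POLR2A by 19, and by 5 with both. The highest H3K9me3 values away from the margins were beside RPEL1 on chromosome 10 (103251028 to 103251274, 25.4, POLR1A 6.28) and in LOC105370084 on chromosome 12 (131588423 to 131588622, 25.3, POLR1A 4.78), so a high H3K9me3 value did not go with a high POLR1A value there.

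Across the peaks with POLR2A, POLR1A and POLR2A fold enrichment had a rank correlation (Spearman's rho) of 0.58 over 124 peaks and 0.49 over the 63 away from the margins, close to the 0.56 over the 2609 other POLR1A peaks with POLR2A. POLR1A and H3K9me3 had 0.38 with POLR2A and 0.28 over the 218 peaks without, against 0.50 over the 253 POLR1A peaks with both marks. POLR2A and H3K9me3 had 0.08. Over the 63 peaks with POLR2A away from the margins, POLR1A and H3K9me3 had 0.26, and POLR2A and H3K9me3 had -0.17. These values are descriptions across sites. The sites share libraries, depth and local sequence, so no p is given.

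**Figure D5:**
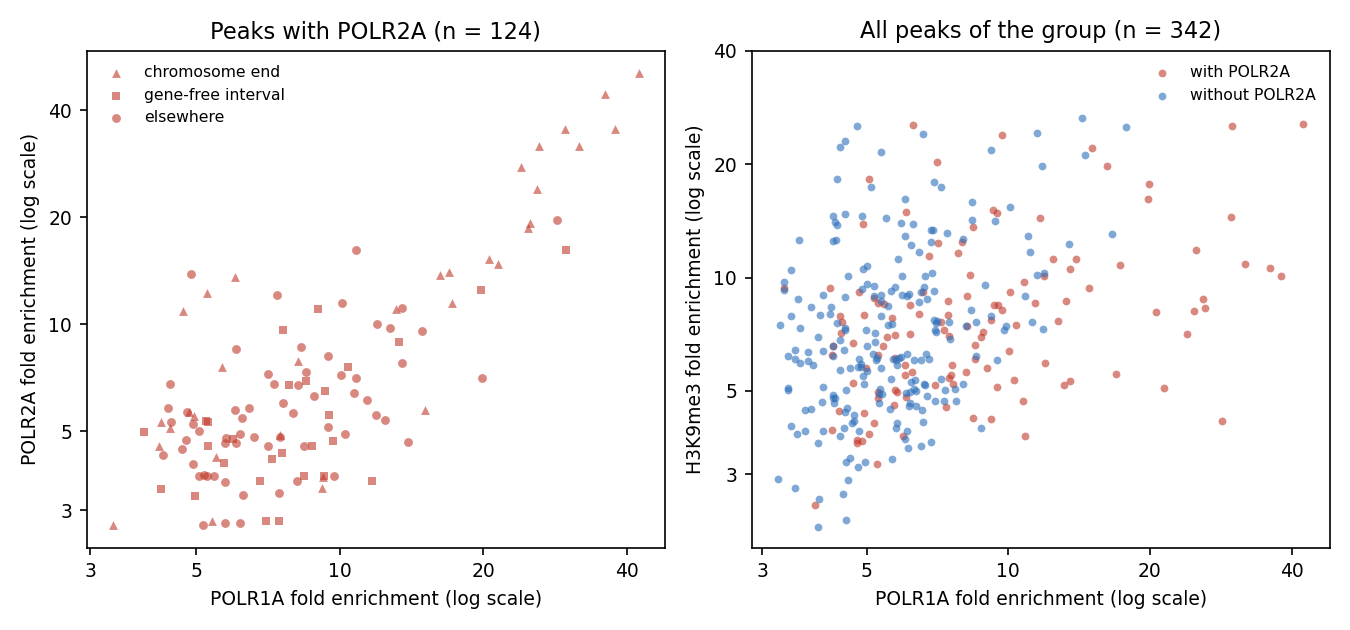
Fold enrichment of POLR1A (x axes, log scale) against POLR2A for the 124 peaks with POLR2A (left, marker by chromosome margin) and against H3K9me3 for all 342 peaks (right, colour by class), 1 point per peak. The highest pair of polymerase values, 42.4 and 50.9, is at a chromosome end, and rho was 0.58 on the left.

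Some peaks lay close to the limits of the rule. The smallest overlaps with H3K9me3 inside the group were 1, 9 and 40 bp, with POLR1A at 10.8, 7.48 and 4.47. The nearest peaks left out for lack of H3K9me3 were 32, 65 and 98 bp away from it, with 4.53, 5.25 and 5.67. The smallest gaps to H3K4me3 inside the group were 71 and 177 bp (7.48 and 4.69), and the smallest overlaps outside it 122 and 125 bp (12.9 and 7.39). At least 50% of the POLR1A peak was covered by H3K9me3 in 333 of 342 cases, so few members rested on a marginal overlap.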

How the data were processed

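Each target has 1 deposited list in the narrowPeak format, with names as MACS2 writes them. That of H3K4me3 comes from 1 sample, and no replicate is named in the others, which were assigned to targets by their names. The fold enrichment is a ratio made by the authors, as are the deposited −log10 q values and the score derived from them. Nothing in the sources used here gives the caller's settings, its control, pooling, read depth or the treatment of repeated sequence. Tools in the submitters' processing notes include STAR, SAMtools 1.6 and deepTools 3.1.1, and the builds named there are GRCh38 and hg38. Overlap meant 1 shared base. Genes came from a RefSeq table of GRCh38.p14 (58419 genes on these chromosomes). Overlap code was tested on simulated intervals and against bedtools 2.31.1. Shares carry exact 95% intervals (scipy 1.17.1), and no test was run because no list has replicate values. The peaks and gene lists were chosen with earlier results of these data known. Named were, per class, the 12 peaks of highest POLR1A fold enrichment and those at protein-coding gene ends, the 6 of highest H3K9me3, clusters of 3 or more and up to 4 per gene family; others were picked after their values were seen. Coordinates are 1-based on GRCh38. The result for 1 gene is not reported here.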

Additional observations from a re-analysis of the deposited data

Results flagged for a closer look

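The rule was applied also to the POLR1A peaks outside chromosomes 1 to 22 and X, which enter no comparison above. Of 310 such peaks, 219 lay on H3K9me3 without H3K4me3 (70.6%, 95% exact interval 65.2 to 75.7), 68 with POLR2A and 151 without. They were noted because this signal lies in data that the main description leaves out. Unplaced and unlocalised contigs had 133 of 149 (89.3%, with a median POLR1A fold enrichment of 6.57), chromosome Y 36 of 40, alternate and patch contigs 47 of 112 (42.0%, highest 39.6) and the mitochondrial genome 3 of 9.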

How the results depend on the processing

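No paired analysis was possible because the lists hold no values per replicate. Of 79 alternative values, 55 kept within 1.5 times the main count or within the exact interval of the main value, and 24 did not. With a −log10 q of at least 5 in every list the group held 201 peaks, 54 of them with POLR2A; median folds were 12.5 with and 6.86 without POLR2A, gene bodies held 23.4%, intergenic sites 76.1%, margins 60.2%, and 50.7% had a neighbour. Without the peaks of the margins it held 168 peaks, 63 with and 105 without POLR2A, of which 53.0% were in gene bodies, 45.8% intergenic, and 23.2% had a neighbour. With lists of equal length median folds were 11.4 with and 6.17 without POLR2A, gene ends held 8.75%, intergenic sites 54.7%, margins 44.7%, and 23.4% had a neighbour. Margins of 500 kb and 2 Mb held 42.1% and 58.2%. Neighbours within 2 kb and 50 kb were found for 25.7% and 44.7%. The cause of these shifts was not tested, beyond the fewer peaks or the narrower or wider windows that define them. Depth is unknown, so an absent H3K4me3 or POLR2A peak means only that none was called.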

Other observations

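Some genes outside the named set held several peaks of the group; they were picked after their values were seen. PTPRN2 on chromosome 7, which encodes a phosphatase-like protein of secretory granules, held 6, 3 of them with POLR2A. Their POLR1A fold enrichments ran from 3.34 to 6.07 and H3K9me3 from 4.66 to 9.40. The other POLR1A peaks in this gene and in those below were not counted. The 1 Mb block of chromosome 7 that starts at 158 Mb held 13 POLR1A peaks, 5 of them in the group, and 21 H3K9me3 peaks. PPP2R2C on chromosome 4, a regulatory subunit gene of protein phosphatase 2A, held 2 on the same H3K9me3 peak (13.9), with POLR1A at 6.29 and 4.92. FOXN3 on chromosome 14, a forkhead transcription factor gene that FOXN3-AS3 overlaps there, held 2 without POLR2A (4.31 and 3.59). Their H3K9me3 value was the same, 12.6. RAB40B on chromosome 17 held 2 (4.83 and 4.82) and ERICH1 on chromosome 8 held 2, both with POLR2A (5.28 and 4.22). In ERICH1 the H3K9me3 value was also the same for both, 6.23. Of 64 protein-coding genes with a peak of the group, 6 had more than 1.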
